A study of Mus musculus with 6 samples.

Results

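Transcripts of 36 cilium genes were followed in cones of the rd1TN-XL mouse treated with trichostatin A (TSA). The set holds every row of the count table named as a numbered Ift or Bbs gene, *Arl3*, *Arl6* and *Arl13b*, and 11 further genes (*Ttc8*, *Bbip1*, *Rpgr*, *Rpgrip1*, *Cep290*, *Kif3a*, *Kif17*, *Rp2*, *Tulp1*, *Nphp4* and *C2cd3*), 36 of 46078 genes in all. Rods of this mouse die from a defect of *Pde6b*, and a human red opsin promoter (HR2.1) drives TN-XL, a fluorescent Ca2+ sensor, in its cones. Retinas explanted with their pigment epithelium at PN19 were cultured for 7 days with 10 nM TSA, an inhibitor of histone deacetylases, or with DMSO, its solvent, as the control. TN-XL-positive cells were then sorted and sequenced as 3 control and 3 TSA libraries, each from explants of more than 1 animal. Both groups carry the same genotype and sensor. The source names give 1 harvest age, P26, for all samples, whereas the time point labels run from 26 to 28 days in controls and from 29 to 31 days in the TSA group. If those labels hold, age and treatment cannot be told apart.

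The light-sensitive outer segment of a cone is a modified primary cilium, joined to the cell body by a thin connecting cilium. Everything the outer segment needs has to pass this bridge. Intraflagellar transport (IFT) particles move along its microtubules, with IFT-B and kinesin-2 carrying cargo towards the tip and IFT-A and dynein-2 returning it. The BBSome, a coat-like complex named after Bardet-Biedl syndrome, picks up membrane proteins for removal from the cilium, and the small GTPase ARL3 unloads lipid-anchored cargo within it. Defects of many of these genes cause retinal degeneration in people and mice.

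The libraries held 9135389 to 13650676 counts, so that 10 counts corresponded to 0.705 to 0.951 CPM (counts per 1000000), and a count of 0 allowed a level of up to 0.212 to 0.285 CPM, for counting error only. All 10 listed cone markers reached 10 counts in every library and took 2.97% to 5.28% of the counts. The 10 rod markers took 1.13% to 2.36%, mostly as *Gngt1*, *Pde6g* and *Sag*, and 4 to 6 of them reached 10 counts. The defining rod genes *Nrl*, *Nr2e3* and *Gnat1* stayed at 5 counts or fewer in every library. Rods have the same connecting cilium, and their part in the cilium gene values was not tested. TSA replicate 1 stood apart. Its Müller glia markers took 0.605% of the counts (95% Wilson interval 0.600% to 0.609%), against 0.0408% to 0.102% in the other 5 libraries, and its microglia markers 0.191% (0.189% to 0.194%), against 7.33e-05% to 0.0193%. Its bipolar markers were also the highest, with 0.120% against 0.00603% to 0.0703% in the other libraries. The same held for amacrine and ganglion markers, with 0.0174% against 6.28e-05% to 0.00618%. Values with and without TSA replicate 1 are therefore given for each cilium gene whose difference is described as more than the spread. Markers of ciliated epithelium (*Foxj1*, *Dnah5*, *Dnah11*, *Tekt1* and *Ccdc39*) took at most 0.00386% of the counts of any library, and *Foxj1*, the master factor of motile cilia, never exceeded 1 count. Yet *Tekt1* had 325 and *Ccdc39* 86 counts in TSA replicate 1, and *Dnah5* had 488 in TSA replicate 3. The part of such cells in the cilium gene values was not tested. In sorted bulk RNA, fewer cells of a type and less RNA per cell cannot be told apart.

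Of the 36 cilium genes, 29 had over 1 CPM in 2 or more libraries of either group, and so entered the test together with all other genes kept, 9621 in all. The 7 that did not pass were *Ift88*, *Ift140*, *Bbs7*, *Bbs9*, *Arl13b*, *Kif17* and *Nphp4*. As the filter counts libraries within a group, a gene high in 1 group only can pass it, and counts over the 29 describe those genes alone. No cilium gene passed an adjusted p of 0.05 in the quasi-likelihood test of edgeR, where the background was 0% of genes tested in either direction and the smallest adjusted p of any gene was 0.405. At an unadjusted p up to 0.05, 1 cilium gene, *Ift57*, was higher in TSA-treated cones and 1, *C2cd3*, was lower, against 8.02% and 2.3% of all genes tested, or 10.3% in either direction. DESeq2 called the same pair at its adjusted p, and limma-voom with quality weights called 0 of the 29, where these tools called 6.82% and 0.333% of all genes as higher and 2.08% and 0.052% as lower. With 1 gene in each direction among 29, the counts stood near these background shares.

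*Ift57*, a peripheral subunit of IFT-B that pairs with IFT20, had few counts in the control libraries and was plain in every TSA library. Its counts, given here and for every gene in the order of the replicates, were 1, 45 and 16 in control and 807, 725 and 1114 in TSA. The groups did not overlap, and control replicate 1 lay lowest. In CPM the means were 1.94 ± 2.14 in control and 70.9 ± 25.4 in TSA (SD, n = 3 each), a log2 fold change of 5.19 with a standard error of 1.82 (edgeR, unadjusted p = 0.0226, adjusted p = 0.405). Groups of CPM without overlap and higher in TSA were found for 6.37% of all genes tested and for this gene alone among the 29. Without TSA replicate 1 the log2 fold change was 5.33 (edgeR, unadjusted p = 0.0436). It missed the unadjusted threshold without control replicate 3 (4.88) and without TSA replicate 3 (4.79), with unadjusted p values of 0.0578 and 0.0577 in edgeR. DESeq2 gave 5.09 with an adjusted p of 0.00492, and limma-voom 6.22 with an adjusted p of 0.184. The gene lies at chr16:49699233-49765126 on the plus strand of GRCm38 (ENSMUSG00000032965), and its 2862 exon bases share 225 with the antisense gene *Gm15518*, which held at most 1 count per library.

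*C2cd3* showed the opposite pattern. Its protein sits at the distal end of the centriole, where it is needed for the appendages that dock the basal body. Counts were 885, 699 and 229 in control but 1, 4 and 2 in TSA. All TSA libraries thus lay within a few counts of 0, and the groups did not overlap, as for 3.71% of all genes tested in this direction. The mean level was 56.3 ± 31.9 CPM in control and 0.186 ± 0.118 CPM in TSA (SD, n = 3 each), a log2 fold change of -8.17 with a standard error of 1.92 (edgeR, unadjusted p = 0.00317, adjusted p = 0.405). Leaving out 1 library at a time gave -8.69 to -7.72, with unadjusted p values of edgeR from 0.00270 to 0.0150, the latter without TSA replicate 1. DESeq2 gave -8.31 with an adjusted p of 2.56e-09, while limma-voom gave -7.95 with an adjusted p of 0.0534. *C2cd3* lies at chr7:100372233-100470152 on the plus strand (ENSMUSG00000047248), and its 11994 exon bases share 274 with the antisense gene *Gm10603* and 75 with *Ppme1* on the other strand. As the amplification kit does not mark strand, reads from shared bases cannot be assigned to 1 strand. *Ppme1* had 0, 130 and 1 counts in control and 416, 597 and 1 in TSA, *Gm10603* 0, 0 and 2 in control and 152, 0 and 0 in TSA, so neither neighbour followed *C2cd3*.

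**Figure D1:**
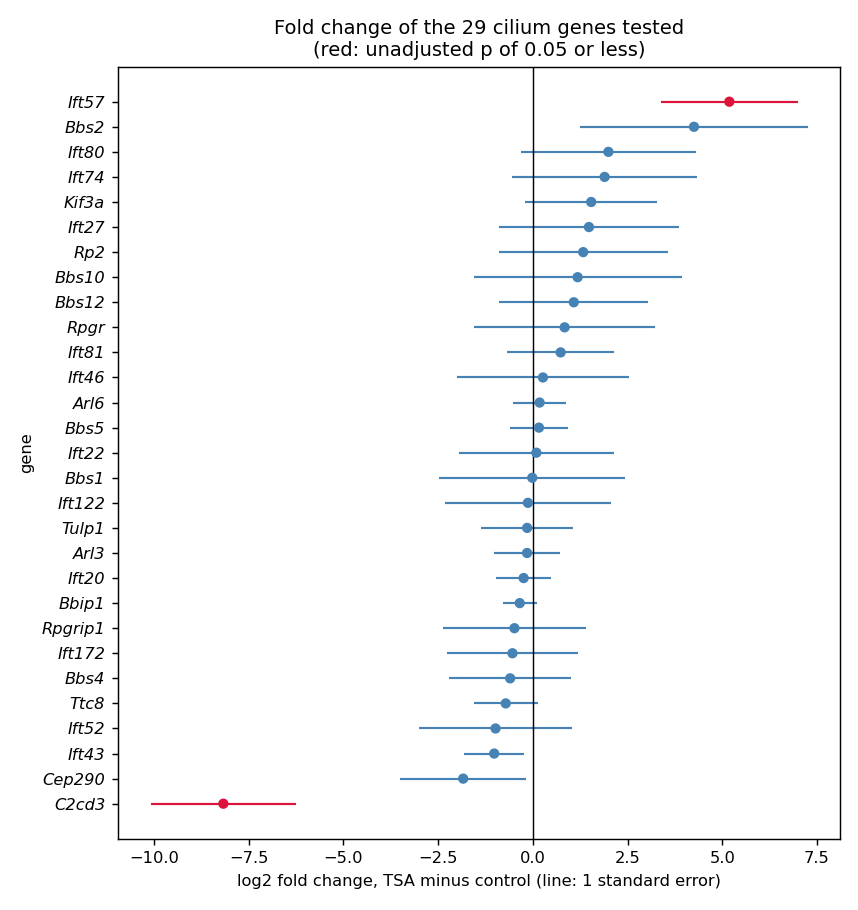
Log2 fold change (TSA minus control, x axis) of the 29 cilium genes tested by edgeR, with lines of 1 standard error and 1 gene per row. *Ift57* at 5.19 and *C2cd3* at -8.17, in red, stand at the 2 ends, and the other 27 genes lie between -1.84 and 4.25 with wide errors.

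The promoters of this pair are shown because no other cilium gene had an unadjusted p up to 0.05. The letters are from RefSeq (GRCm38.p6) and end 1 base before the start of the annotated gene, at chr7:100371983-100372232 for *C2cd3* and chr16:49699044-49699232 for *Ift57*, both on the plus strand. Neither stretch holds any of the motifs searched, so that no letter is in capitals. The *Ift57* stretch is cut just before the match given below, which lies inside the annotated gene at chr16:49699234-49699246.
C2cd3: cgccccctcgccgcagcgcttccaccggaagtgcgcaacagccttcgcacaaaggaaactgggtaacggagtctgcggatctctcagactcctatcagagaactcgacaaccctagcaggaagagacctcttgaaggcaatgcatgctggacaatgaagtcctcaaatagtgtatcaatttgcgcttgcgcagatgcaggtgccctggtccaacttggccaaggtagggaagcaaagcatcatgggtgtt
Ift57: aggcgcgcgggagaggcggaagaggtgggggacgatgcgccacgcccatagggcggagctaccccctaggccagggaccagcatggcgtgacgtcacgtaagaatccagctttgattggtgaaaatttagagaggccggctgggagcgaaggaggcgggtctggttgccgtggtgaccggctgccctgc
GC content was 54.4% in the *C2cd3* stretch and 66.0% in that of *Ift57*.

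Many cilium genes are controlled through the X-box, the binding site of RFX factors. Windows of 250 bases before to 50 after the RefSeq start were found for 33 of the 36 genes (not for *Ift80*, *Ift81* and *Ift122*), and both strands were searched for the X-box (arms GTTNCC and GGNAAC with 2 bases between them), its short form GTTGCCAT and the site CTAATCC of the photoreceptor factor CRX. The X-box was found in 1 of the 33, *Bbs7*, and in 0.529% of 27025 genes with a window. The short form was found in none of the 33 and in 1.54% of genes, and the CRX site in 1, *Rpgrip1*, and in 2.34% of genes. *Ift57* held an X-box with 1 base in place of 2 between the arms (0.311% of genes), a form looked for only after the sequences had been seen. With 3 bases between the arms there was no match among the 33 (0.0703% of genes). The matches, in capitals with 30 bases of each window read along the gene, were as follows.
Bbs7: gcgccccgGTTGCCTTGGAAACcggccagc
Ift57: gccctgcgGTTGCCTGGTAACggtggggac
Rpgrip1: ctaaaaggcctGGATTAGtgtctcctctaa
Distances are from the RefSeq start of each gene. The *Bbs7* letters stand at chr3:36613489-36613518 on the minus strand, with the match 121 to 108 bases before that start. Those of *Ift57* stand at chr16:49699226-49699255 on the plus strand, with the match 60 to 48 bases before it. Those of *Rpgrip1* stand at chr14:52110864-52110893 on the plus strand. Here the CRX site lies on the opposite strand, 28 to 22 bases before the RefSeq start. It falls inside the annotated *Rpgrip1* gene, which begins at chr14:52110704. These are matches of letters, not measured sites. The 3 genes did not behave alike. *Ift57* was higher in TSA, *Bbs7* reached 10 counts in only 1 library of each group, and *Rpgrip1* overlapped between the groups. Of the RFX factors, *Rfx7* had 110, 181 and 187 counts in control and 239, 201 and 7 in TSA, and *Rfx3*, a main RFX factor of ciliated cells, 5, 25 and 219 in control and 66, 239 and 2 in TSA. Both overlapped between groups, and *Rfx1*, *Rfx2*, *Rfx4* and *Rfx5* did not pass the filter.

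None of the other 27 cilium genes tested passed. Among them, the log2 fold change lay between -1.84 and 4.25, the lowest unadjusted p of edgeR was 0.196, and the lowest adjusted p was 0.976. Of the 29 tested, 15 had a log2 fold change above 0, against 50.9% of all genes tested, and 17 lay between -1 and 1. The median was 0.10 over the 29 and 0.02 over all genes tested. Summed over the 36 genes, the level was 3223, 2569 and 4226 CPM in control and 2791, 2746 and 3109 CPM in TSA. The means, 3339 ± 835 CPM and 2882 ± 198 CPM (SD, n = 3 each), lay within the range of the control libraries.

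**Figure D2:**
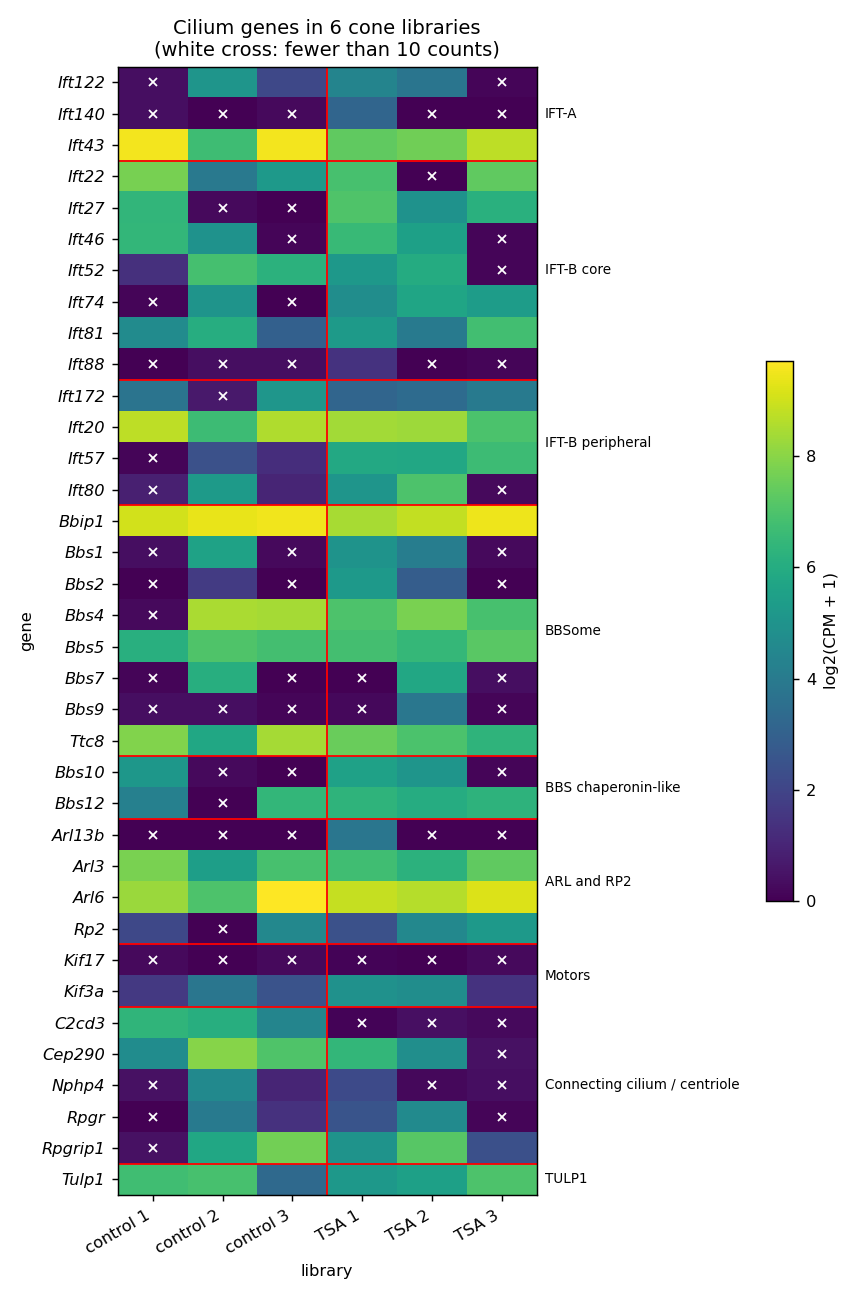
Level of the 36 cilium genes (rows, by role) in the 6 libraries (columns), as log2(CPM + 1), with a white cross where a library had fewer than 10 counts. *C2cd3* is crossed in all 3 TSA libraries and in no control, and no other gene is crossed in all libraries of 1 group and in none of the other.

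The IFT-A particle is represented by 3 genes. *Ift43*, a small subunit, had 8164, 1093 and 8276 counts in control and 2317, 2567 and 4777 in TSA. Control replicate 2 lay below every TSA library and the other controls above them, and the log2 fold change was -1.02 with a standard error of 0.80 (edgeR, unadjusted p = 0.240, adjusted p = 1.00). Without control replicate 2, singled out after its counts were seen, it was -1.54 (edgeR, unadjusted p = 0.0296, adjusted p = 0.443). It was -0.68 without control replicate 1 and -0.80 without control replicate 3 (edgeR, unadjusted p = 0.471 and 0.414). *Ift122*, a large scaffold subunit, had 3, 338 and 37 counts in control and 282, 166 and 1 in TSA (log2 fold change -0.13, standard error 2.20), so that each group held a library near 0. *Ift140*, another scaffold subunit, was not tested. It had 3, 0 and 2 counts in control and 0 in TSA replicates 2 and 3. Its 112 counts in TSA replicate 1 fell in the library with the highest shares of Müller glia, microglia, bipolar, and amacrine and ganglion markers. The part of such cells in this value was not tested.

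The IFT-B core, which forms the stem of the anterograde particle, had 5 of 6 genes tested with a log2 fold change above 0, none of them called. *Ift74* and *Ift81*, partners that bind tubulin as cargo, differed in how steadily they were found. *Ift74* had 1, 334 and 0 counts in control and 371, 674 and 454 in TSA, with only control replicate 2 inside the TSA range of CPM (1.90, standard error 2.45). *Ift81* was found in every library, with 269, 694 and 78 counts in control and 536, 197 and 1223 in TSA, and the groups overlapped widely (0.73, standard error 1.41). *Ift27*, a small GTPase that connects IFT-B with BBSome export, had 892, 2 and 0 counts in control and 1858, 388 and 779 in TSA, so that 1 control library exceeded 2 of the TSA libraries (1.48, standard error 2.38). For *Ift74* and *Ift27* the value depended on a single control library, singled out after its counts were seen. Without control replicate 2 the log2 fold change of *Ift74* was 9.43 (edgeR, unadjusted p = 0.00935, adjusted p = 0.439). Without control replicate 1 that of *Ift27* was 9.43 (edgeR, unadjusted p = 0.00842, adjusted p = 0.530). The controls left had 1 and 0 counts for *Ift74* and 2 and 0 for *Ift27*. Both values thus rest on counts near 0 and on the prior count, a small number that edgeR adds to counts.

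*Ift22*, also a small GTPase of the core, had 2280, 151 and 415 counts in control and 1660, 0 and 1813 in TSA (0.10, standard error 2.05). TSA replicate 2 had none of a transcript that was plain in the other 5 libraries. *Ift46* had 921, 314 and 1 counts in control and 1322, 589 and 1 in TSA (0.27, standard error 2.28), with 1 library at a single count on each side. *Ift52*, which holds the core together, had 17, 1210 and 841 counts in control and 499, 807 and 1 in TSA (-0.98, standard error 2.03). *Ift88*, whose loss in the mouse disrupts outer segment formation, did not exceed 3 counts outside TSA replicate 1, where it had 24, and was not tested.

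Of the peripheral IFT-B genes other than *Ift57*, none was called. *Ift20*, the subunit that also sits at the Golgi, had 4628, 1060 and 4226 counts in control and 4665, 4076 and 1398 in TSA. High and low libraries occurred in both groups, and the log2 fold change was -0.24 with a standard error of 0.72. *Ift80* had 9, 402 and 11 counts in control and 461, 1658 and 2 in TSA (2.00, standard error 2.31), so that TSA replicate 3 was the lowest of all 6. Without control replicate 2, singled out after its counts were seen, the value was 5.83 (edgeR, unadjusted p = 0.0879). *Ift172*, a long subunit at the edge of the particle, had 135, 6 and 373 counts in control and 113, 125 and 161 in TSA (-0.54, standard error 1.74). Its TSA libraries lay close together, inside the range of the controls. Among the motors, *Kif3a*, the kinesin-2 subunit that drives IFT, had 22, 137 and 51 counts in control and 412, 345 and 19 in TSA (1.54, standard error 1.74). TSA replicate 3 again lay lowest. *Kif17*, the homodimeric kinesin-2, had at most 2 counts in any library, a level not distinguishable from absence at this depth.

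The BBSome has 8 subunits in the set, of which 6 were tested, 2 with a log2 fold change above 0 and 4 below, none of them called. *Bbip1*, the smallest subunit, had the steadiest level of all 36 genes. It had 5695, 7016 and 8061 counts in control and 4940, 5891 and 7886 in TSA, a log2 fold change of -0.34 with a standard error of 0.45 (edgeR, unadjusted p = 0.463, adjusted p = 1.00). *Bbs5*, which binds phosphoinositides, was nearly as steady, with 740, 1376 and 1254 counts in control and 1577, 1152 and 1659 in TSA (0.16, standard error 0.78). The highest library exceeded the lowest 2.07-fold for *Bbip1* and 2.18-fold for *Bbs5* in CPM. *Ttc8*, the subunit also known as BBS8, had 2506, 567 and 3801 counts in control and 2527, 1628 and 875 in TSA (-0.71, standard error 0.84), with the lowest and the highest library both among the controls.

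The remaining BBSome subunits came and went between libraries of the same group. *Bbs4* had 2, 3721 and 3744 counts in control and 1785, 2785 and 1296 in TSA (-0.60, standard error 1.62). Control replicate 1 thus had next to none of a transcript that was abundant in the other 5 libraries. *Bbs1* had 3, 499 and 2 counts in control and 441, 211 and 2 in TSA (-0.01, standard error 2.46), and *Bbs2* at most 23 counts in control and 510, 82 and 0 in TSA (4.25, standard error 3.0, edgeR unadjusted p = 0.196). The control signal of *Bbs2* came from replicate 2 alone. Without it both remaining controls were at 0, and the fitted change of 10.4 (edgeR, unadjusted p = 0.0651) depends on the prior count and is no bound. *Bbs7* was present in control replicate 2 with 713 counts and in TSA replicate 2 with 730, and in no other library with more than 3, while *Bbs9* exceeded 3 counts in TSA replicate 2 alone, with 174. The number of subunits under 10 counts was 5, 1 and 4 of 8 in control and 2, 0 and 4 in TSA, so that only 1 of the 6 libraries, TSA replicate 2, held all 8. The summed level of the 8 genes was 827 to 1511 CPM in control and 831 to 1054 CPM in TSA. *Bbip1* alone gave 526 CPM of the lowest control sum and 709 CPM of the highest TSA sum. The sum therefore says little about the subunits that were missing.

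*Bbs10* and *Bbs12* encode chaperonin-like proteins that help to assemble the BBSome. *Bbs12* had 194, 0 and 954 counts in control and 1125, 824 and 850 in TSA (1.08, standard error 1.97), while *Bbs10* had 369, 2 and 0 in control and 647, 420 and 1 in TSA (1.18, standard error 2.75). Control replicate 2 had next to nothing of either, and the groups of both overlapped. Both values depended on single control libraries, singled out after their counts were seen. Without control replicate 1 the log2 fold change of *Bbs10* was 7.85 (edgeR, unadjusted p = 0.0696), and without control replicate 3 that of *Bbs12* was 2.94 (edgeR, unadjusted p = 0.257). The controls left for *Bbs10* had 2 and 0 counts, so that 7.85 rests on counts near 0 and on the prior count.

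*Arl3* and *Arl6* were among the 10 genes found in every library, unlike *Arl13b*. *Arl6*, whose product recruits the BBSome to membranes, had 3342, 1353 and 9393 counts in control and 6569, 5182 and 6554 in TSA, so that the TSA libraries lay between the second and the highest control (0.18, standard error 0.69). *Arl3* had 2351, 449 and 1330 counts in control and 1490, 978 and 1795 in TSA (-0.15, standard error 0.88), again with the extremes among the controls. *Rp2*, which switches ARL3 off, had 36, 0 and 247 counts in control and 61, 293 and 415 in TSA (1.33, standard error 2.23), and 3.58 without control replicate 3. *Arl13b*, the GEF that switches ARL3 on and a standard marker of cilia, was listed at 0 in 5 libraries and had 185 counts in TSA replicate 1. As for *Ift140*, this is the library with the highest shares of Müller glia, microglia, bipolar, and amacrine and ganglion markers. The part of such cells in the value was not tested.

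At the connecting cilium, 3 of 4 genes tested had a log2 fold change below 0, and only *C2cd3* reached an unadjusted p up to 0.05. *Cep290*, a linker between the microtubules and the membrane of the transition zone, had 277, 2581 and 1471 counts in control and 1210, 353 and 4 in TSA (-1.84, standard error 1.66, edgeR unadjusted p = 0.302). The groups overlapped, and TSA replicate 3 was far below all others. *Rpgrip1*, the anchor of RPGR in this compartment, had 4, 570 and 2207 counts in control and 443, 1892 and 47 in TSA (-0.48, standard error 1.88), and 1057 of its 12152 exon bases lie opposite exons of *Supt16*. *Cep290* shares 881 of 11617 exon bases with *4930430F08Rik* on the other strand. *Rpgr* ranged from 0 to 153 counts in control and from 1 to 315 in TSA (0.84, standard error 2.38). Its sign turned without TSA replicate 2 (-1.10), and without control replicate 2 it was 3.53. *Nphp4*, a transition zone gene, ranged from 4 to 250 counts in control and from 2 to 51 in TSA without passing the filter. The summed level of these 5 genes was 108, 405 and 353 CPM in control and 125, 197 and 5.13 CPM in TSA, so that the groups overlapped. *Tulp1*, a photoreceptor protein of the tubby family needed for opsin transport, had 1137, 1238 and 101 counts in control and 500, 590 and 1430 in TSA (-0.15, standard error 1.22), with no separation of the groups.

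**Figure D3:**
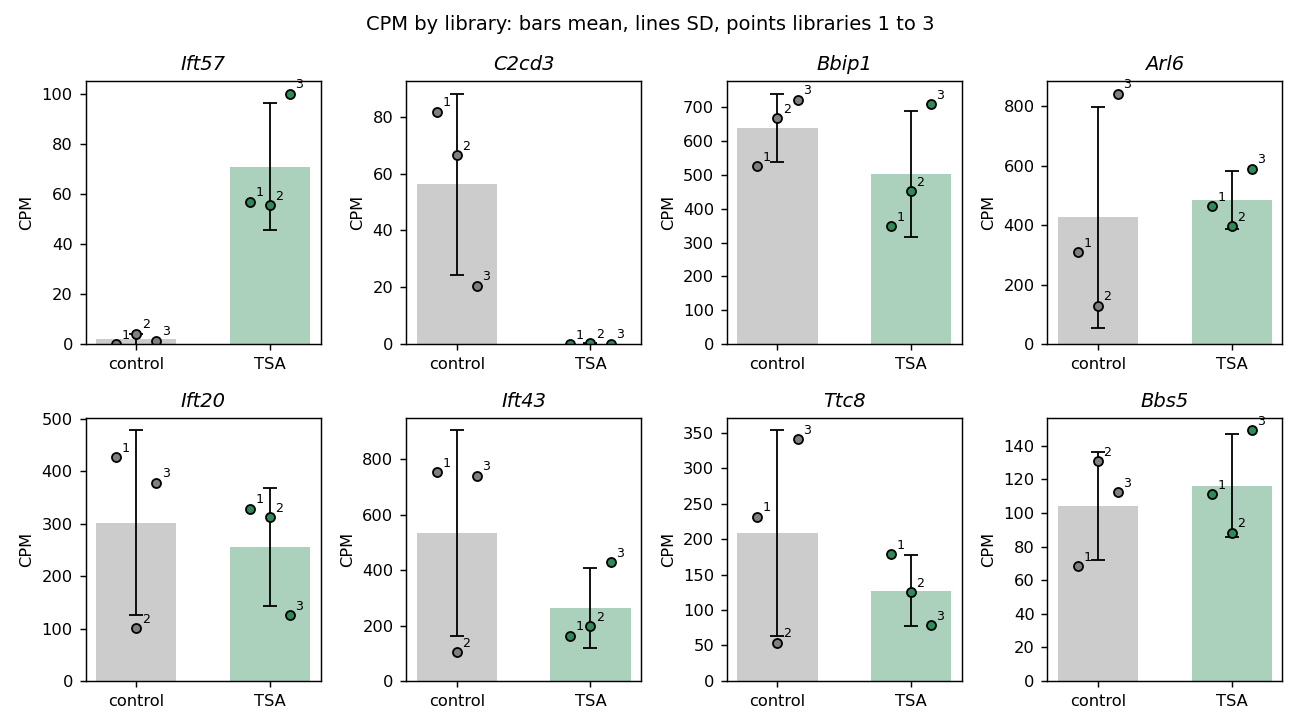
CPM of 8 cilium genes in control and TSA libraries, with bars for the mean, lines for the SD (n = 3 each) and numbered points for the libraries, on a linear axis from 0. *Ift57* and *C2cd3* separate the groups, whereas the points of *Bbip1*, *Arl6*, *Ift20*, *Ift43*, *Ttc8* and *Bbs5* overlap.

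The number of cilium genes that reached 10 counts in a library overlapped between the treatments. At least 10 counts were reached by 20, 26 and 24 of the 36 genes in control and by 32, 29 and 19 in TSA. The TSA group therefore held both the library with the most and the library with the fewest. The same minimum was reached by 66.3%, 77.0% and 65.0% of all genes tested in control and by 91.6%, 85.2% and 68.5% in TSA, so that the 3 libraries richest in cilium genes were also the 3 richest in genes, while TSA replicate 3 had the fewest cilium genes without having the fewest genes. The means were 23.3 ± 3.06 genes in control and 26.7 ± 6.81 in TSA (SD, n = 3 each). Of the 29 genes tested, 19 had fewer than 10 counts in at least 1 library, as had 64.3% of all genes tested, and 4 in at least 3 libraries, against 27.4%.

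**Figure D4:**
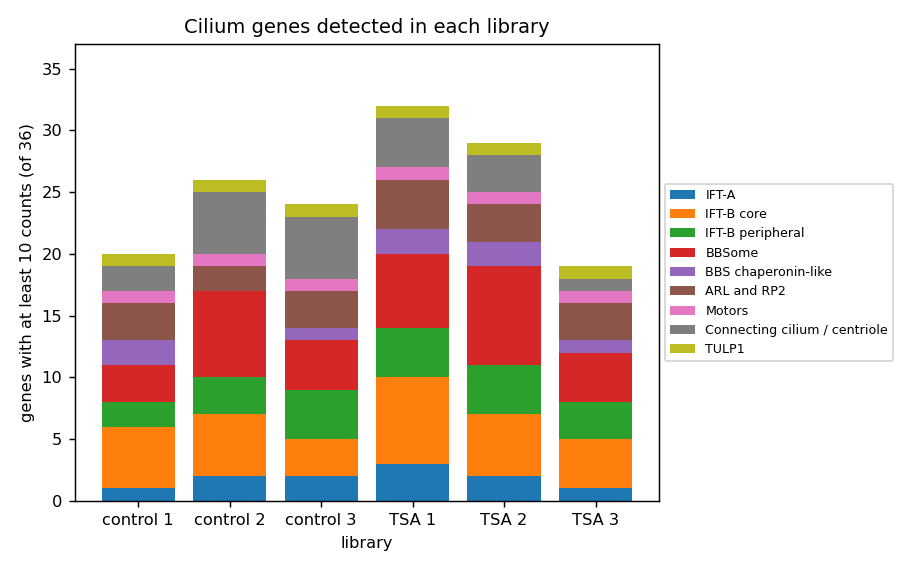
Number of the 36 cilium genes with at least 10 counts (y axis) in each library (x axis), stacked by role. The bars reach 20, 26 and 24 genes in control and 32, 29 and 19 in TSA.

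The spread within groups was wide for cilium genes as for others. The median SD within groups of log2(CPM + 1) was 1.97 over the 29 genes and 1.74 over all genes tested, and the median range over the 6 libraries 5.26 and 4.73. A core of 10 genes reached 10 counts in every library, namely *Arl3*, *Arl6*, *Bbip1*, *Bbs5*, *Ift20*, *Ift43*, *Ift81*, *Kif3a*, *Ttc8* and *Tulp1*. Their highest library exceeded their lowest by 2.07-fold to 17.0-fold in CPM. For the 20 genes found in 3 to 5 libraries, and without those listed at 0 in a library, the same ratio ran from 58.6-fold to 1916-fold, the latter for *Bbs4*. A log2 fold change near 0 with a large standard error, such as that of *Bbs1*, thus reflects presence and absence in both groups and not an even level.

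Per kilobase of exon, the transcripts most abundant in these cones were *Ift20*, *Arl6*, *Ift43* and *Bbip1*, with medians over the 6 libraries of 210.3, 205, 189.7 and 136 CPM per kb. A second tier held *Bbs5*, *Arl3* and *Ttc8*, at 45.7, 45.04 and 40.1 CPM per kb, followed by *Bbs12* and *Bbs4* at 28.7 and 28.1 CPM per kb. The ranges over libraries overlapped within each tier. Between the first and the second tier, *Arl3* and *Ttc8* reached into the range of the first, whereas the highest *Bbs5* value of 61.02 CPM per kb stayed below the lowest value of each of its 4 genes. The genes found in all 6 libraries had a median exon length of 3038 bases (1525 to 6664), those found in 3 to 5 libraries 6041.5 bases (2436 to 12428), and the 6 found in fewer 5238.5 bases (4582 to 8333). Short genes such as *Ift27* (2864 bases) and *Bbs10* (3049 bases) nevertheless had fewer than 10 counts in 2 and 3 libraries.

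**Figure D5:**
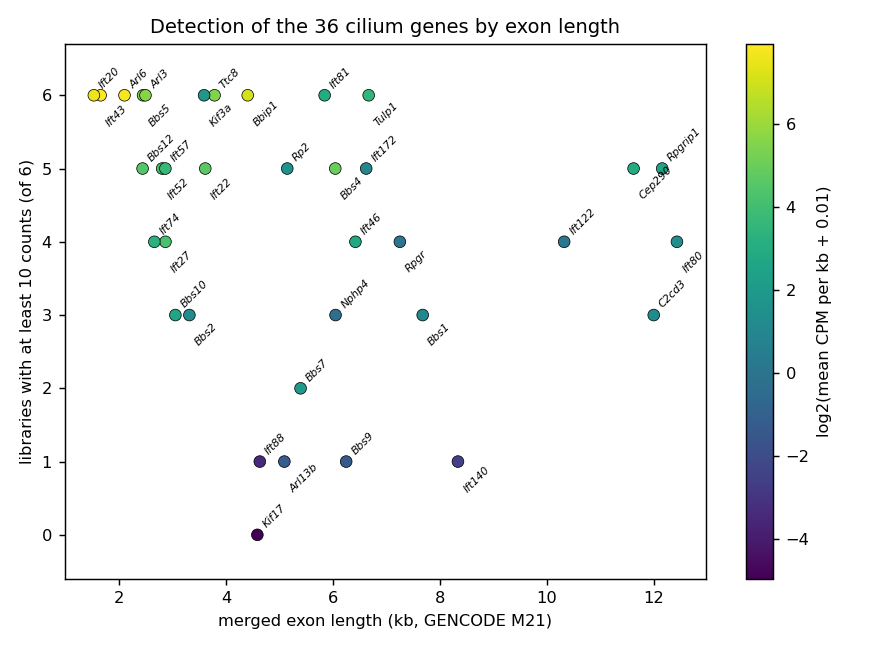
Number of libraries with at least 10 counts (y axis) against merged exon length in kilobases (x axis) for the 36 cilium genes, coloured by log2 of the mean CPM per kb with 0.01 added. The 10 genes found in all 6 libraries span 1525 to 6664 bases, and every gene over 7 kb had fewer than 10 counts in at least 1 library.

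A list of 53 further cilium genes, made up of the IFT, BBS, motor, transition zone and cargo carrier genes that the naming rule leaves out, was examined in the same fit. Of these, 34 were tested, 1 was higher in TSA at an unadjusted p up to 0.05 in edgeR and 0 lower, against 8.02% and 2.3% of all genes, and the median log2 fold change was -0.14. The gene called was *Tmem231*, of the transition zone, which had 0 counts in every control and 156, 212 and 0 in TSA (edgeR, unadjusted p = 0.0243, adjusted p = 0.405), so that TSA replicate 3 did not differ from the controls. *Hspb11*, the IFT-B core subunit also called IFT25 and the partner of IFT27, had 125, 403 and 712 counts in control and 1024, 1660 and 1716 in TSA. Its groups did not overlap, yet the log2 fold change of 1.64 with a standard error of 1.05 did not pass (edgeR, unadjusted p = 0.158, adjusted p = 0.889). *Wdr35*, of IFT-A, had 0, 1262 and 299 counts in control and 72, 20 and 0 in TSA, and *Fam161a*, of the connecting cilium, 441, 152 and 433 in control and 1160, 2473 and 358 in TSA. The groups of both overlapped.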

How the data were processed

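RNA-seq was analysed in 3 control (DMSO) and 3 TSA libraries of sorted TN-XL-positive cones, grouped by the treatment labels. The authors amplified full-length cDNA without molecular identifiers, trimmed single reads with Skewer, used STAR 2.5.4a for alignment to GRCm38, and took gene counts from Subread 1.6.0. Their processing notes also name edgeR 3.22.3. The strand setting of the counting is not given in the sources used here. Raw counts of 46078 genes were deposited, with 9135389 to 13650676 per library. A second deposited table holds, for 14407 genes, the authors' own comparison (a log2 difference, a score and a -log10 p-value) and was not used.

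The filter kept genes over 1 CPM in 2 or more libraries of either group (9621). In R 4.3.3, edgeR 4.0.16 tested treatment two-sided by quasi-likelihood after TMM scaling, and p values were adjusted by Benjamini-Hochberg across every gene kept. The p values set the difference between the groups against the spread between these libraries, each a pool of explants from more than 1 animal. CPM are counts per 1000000 of the TMM-adjusted total of the genes tested, and standard errors come from the fitted change and its F statistic. The procedure was tested on simulated data, but a pass was required only at a spread between replicates (dispersion) far below the 2.16 fitted here. That test therefore does not show which changes could be found in these data. Alternatives were DESeq2 1.42.0, the voom method of limma 3.58.1 with sample quality weights, other scaling and filters, a replicate block and each library left out (refiltered each time). Same-numbered control and TSA libraries did not deviate together (correlations -0.01, 0.07 and 0.03), so the main fit has no block. Exon lengths and positions of all 36 genes are from GENCODE M21. The members and lists were chosen with earlier results of these data known. Values in each library were given for members with a mean of at least 10 CPM, an unadjusted p up to 0.05 or groups without overlap, and for others where a count was singled out after it was seen. Further genes came from 1 list of 53, up to 4 by smallest p, and from lists of RFX factors and cell type markers.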

Additional observations from a re-analysis of the deposited data

How the results depend on the processing

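The calls of *C2cd3* and *Ift57* at an unadjusted p up to 0.05, and their directions, were kept under both other scalings, DESeq2, limma-voom, all 3 other filters and the replicate block. Across all genes, the main fit had 0 genes at an adjusted p under 0.05 and 772 higher and 221 lower at an unadjusted p up to 0.05. DESeq2 called 656 higher and 200 lower at its adjusted p, and 1020 higher and 383 lower at an unadjusted p. Limma-voom called 32 higher and 5 lower at its adjusted p, and 3 cilium genes higher at an unadjusted p (*Ift57*, *Ift74* and *Bbs2*). Without a filter, 9 genes were called higher and 2 lower at an adjusted p, 1722 higher and 1058 lower at an unadjusted p, and 2 cilium genes higher, the second being *Arl13b*, which had counts in TSA replicate 1 only. A filter of more than 1 CPM in at least 3 of the 6 libraries, blind to group, left 255 higher and 57 lower at an unadjusted p. The replicate block left 510 higher and 110 lower, with *C2cd3* at -8.08 (edgeR, unadjusted p = 0.0164) and *Ift57* at 6.17 (edgeR, unadjusted p = 0.0426). Numbers of replicates were not shown to pair the libraries.

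Genes whose log2 fold change was not past the threshold changed sign in several settings, and the cause was not tested. Without scaling factors these were *Ift20* (0.042) and *Arl3* (0.048). With limma-voom they were *Ift52* (0.37), *Ift172* (0.23), *Ift22* (-3.77), *Ift122* (1.90), *Rpgrip1* (1.85), *Bbs4* (2.86), *Ift20* (0.062) and *Bbs1* (3.66). With the replicate block they were *Ift172* (0.39), *Ift22* (-1.29), *Rpgrip1* (1.28), *Bbs4* (0.47), *Bbs1* (0.93) and *Arl3* (0.079). With the filters blind to group it was *Bbs1* (0.033 and 0.0083). The median over the cilium genes tested was 0.10 in the main fit, 1.85 with limma-voom and 0.47 with the block.

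Leaving out 1 library at a time gave 312 to 750 genes higher and 108 to 273 lower at an unadjusted p, and 0 to 2 cilium genes higher and 1 to 2 lower. *C2cd3* stayed called in each, while *Ift57* (4.53 to 6.48) was lost without control replicate 3 or TSA replicate 3. Over these refits the log2 fold change ranged from -0.13 to 0.35 for *Bbs5*, -0.69 to 0.082 for *Ift20*, -0.29 to 1.04 for *Arl6*, -1.02 to 0.25 for *Tulp1*, -0.60 to 0.48 for *Arl3*, -0.59 to 1.85 for *Ift22*, -0.84 to 2.56 for *Ift122*, -0.73 to 6.02 for *Bbs1*, -1.14 to 0.62 for *Ift172*, -2.14 to 0.98 for *Rpgrip1*, -0.64 to 1.49 for *Ift46*, -0.37 to 1.73 for *Ift81* and -1.10 to 3.53 for *Rpgr*. It kept its sign but also moved by over 1.5 times for *Bbs2* (3.55 to 10.4), *Ift74* (1.17 to 9.43), *Ift27* (0.82 to 9.43), *Bbs10* (0.51 to 7.85), *Ift80* (1.29 to 5.83), *Rp2* (0.66 to 3.58), *Bbs12* (0.46 to 2.94), *Kif3a* (1.02 to 2.496), *Cep290* (-3.21 to -1.10), *Ift52* (-1.78 to -0.28), *Bbs4* (-1.25 to -0.18), *Ttc8* (-1.20 to -0.26), *Ift43* (-1.59 to -0.68) and *Bbip1* (-0.72 to -0.089). *Bbs1*, *Bbs2*, *Bbs10* and *Ift80* did not pass the filter in every refit, and then gave no value. With a minimum of 1 count in place of 10, the mean number of cilium genes found was 31 in control (23.3 at 10 counts) and 33 in TSA (26.7 at 10 counts). Amplified reads without molecular identifiers are not independent molecules, and intervals cover counting error only.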
